A study of Mus musculus with 9 samples.

Results

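Chromatin regions called open in cells of the Mesp1 lineage, but in no control library of the Tbx1 lineage, were collected from the ATAC-seq peak lists of 9 mouse libraries at E9.5. ATAC-seq uses a transposase to insert sequencing adapters into accessible DNA, and a peak is an interval where such insertions pile up. The peaks of all 9 lists were merged wherever they overlapped by at least 1 bp on chromosomes 1 to 19 and X. This gave 73301 merged regions. Of these, 2310 regions were chosen by their calls, with a peak in at least 2 of 3 Mesp1-Cre Ctrl libraries and in none of the 3 Tbx1-Cre Ctrl libraries. They are called Mesp1-Cre-only regions below and made up 3.15% of the merged regions. Calls in the Tbx1-Cre cKO libraries played no part in the choice.

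Each library was made from GFP-positive, DAPI-negative cells sorted from pooled Swiss Webster embryos in which Cre had switched on a floxed GFP reporter at Rosa26. The Mesp1-Cre Ctrl embryos (n = 3 libraries) carried Mesp1Cre and Rosa26-GFPflox/+. The Tbx1-Cre Ctrl embryos (n = 3) carried Tbx1Cre and the same reporter, and because this Cre sits in the Tbx1 gene the controls themselves had 1 working copy of Tbx1. The Tbx1-Cre cKO embryos (n = 3) carried Tbx1Cre over Tbx1flox with the same reporter, so that Tbx1 was lost in the cells that became GFP-positive. A Cre reporter marks every descendant of a cell that once expressed the driver gene, whatever that descendant has become.

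Mesp1 is switched on in nascent mesoderm, and its descendants include the heart muscle, endocardium, endothelium, the mesoderm cores of the pharyngeal arches and other cranial and lateral mesoderm. Tbx1 encodes a T-box transcription factor that is active later and in several germ layers: pharyngeal mesoderm, pharyngeal endoderm and ectoderm such as the otic vesicle. The lineages overlap in the cardiopharyngeal mesoderm, which gives rise to the outflow tract of the heart and to branchiomeric muscle. GATA factors are zinc finger proteins with central roles in heart, endothelial and blood development. MEIS proteins are homeodomain cofactors of the TALE class that act with HOX and PBX proteins in pharyngeal, cardiac and limb mesoderm.

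Several differences between the groups touched every result. The labels give the tissue as pharyngeal apparatus and heart for the Mesp1-Cre libraries and add the back for both Tbx1-Cre groups, whereas the methods of the study describe removal of the heart for ATAC-seq. The tissue taken therefore cannot be told apart from the lineage. The Mesp1-Cre Ctrl lists held 42650, 25485 and 30535 peaks in replicates 1 to 3, the Tbx1-Cre Ctrl lists 43298 to 49490, and the cKO lists 19772 to 29251. The length of the list of Mesp1-Cre replicate 1 is not among the peak numbers in the sample summary of the study, where those of replicates 2 and 3 are, so how that list was made is uncertain. Read depth is unknown. The narrowest interval was 199 bp in every Mesp1-Cre Ctrl list and 200 bp in the other 6 lists, and only the Mesp1-Cre Ctrl lists held intervals on the mitochondrial genome, 2 in each. These differences in list format also coincide with the groups. The absence of a call does not measure how closed a region is.

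The sequences of 6 Mesp1-Cre-only regions near genes of heart, posterior mesoderm and limb show the elements to which the results below return. Each is the 300 bp around the midpoint of the region on the plus strand of NCBIM37 (mm9). Capitals mark the GATA motif AGATAA and the MEIS motif TGACAG on either strand, which read TTATCT and CTGTCA on the minus strand. The 6 windows lie more than 1 kb from a transcription start site (TSS) and were picked from the named regions for carrying a GATA match, then by the number of Mesp1-Cre libraries that called them and by their GATA and MEIS matches, with 1 window a gene. They illustrate the motifs and are no support for the shares below. Windows that had a near-identical copy were passed over, a step added after a window near Smyd1 had come up, and the Actc1 window took its place.
Hand2, chr8:59810653-59810952: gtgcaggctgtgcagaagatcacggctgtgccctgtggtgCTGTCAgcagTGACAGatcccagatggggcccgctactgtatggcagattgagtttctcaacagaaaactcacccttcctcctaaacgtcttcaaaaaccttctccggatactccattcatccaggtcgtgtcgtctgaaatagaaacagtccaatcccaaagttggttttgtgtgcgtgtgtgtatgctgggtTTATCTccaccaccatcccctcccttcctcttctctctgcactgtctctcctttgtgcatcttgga
Wnt2, chr6:17888823-17889122: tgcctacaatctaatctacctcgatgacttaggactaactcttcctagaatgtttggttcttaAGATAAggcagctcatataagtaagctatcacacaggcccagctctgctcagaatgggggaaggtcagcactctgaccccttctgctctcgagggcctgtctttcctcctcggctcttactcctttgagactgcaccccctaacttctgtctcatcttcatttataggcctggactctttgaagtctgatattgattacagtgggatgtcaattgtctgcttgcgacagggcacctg
Tbx4, chr11:85702136-85702435: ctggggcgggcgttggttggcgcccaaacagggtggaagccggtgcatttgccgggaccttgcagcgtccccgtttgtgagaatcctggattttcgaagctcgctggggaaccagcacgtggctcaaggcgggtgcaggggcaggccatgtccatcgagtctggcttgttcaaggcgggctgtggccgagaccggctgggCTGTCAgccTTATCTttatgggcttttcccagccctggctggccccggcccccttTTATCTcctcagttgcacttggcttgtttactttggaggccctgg
Gata5, chr2:180089696-180089995: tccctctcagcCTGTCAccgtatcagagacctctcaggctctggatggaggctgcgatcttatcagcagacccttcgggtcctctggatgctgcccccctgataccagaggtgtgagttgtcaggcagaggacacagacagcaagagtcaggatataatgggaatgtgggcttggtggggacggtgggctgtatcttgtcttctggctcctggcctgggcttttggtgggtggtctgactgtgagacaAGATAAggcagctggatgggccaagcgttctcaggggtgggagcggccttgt
Ryr2, chr13:12162622-12162921: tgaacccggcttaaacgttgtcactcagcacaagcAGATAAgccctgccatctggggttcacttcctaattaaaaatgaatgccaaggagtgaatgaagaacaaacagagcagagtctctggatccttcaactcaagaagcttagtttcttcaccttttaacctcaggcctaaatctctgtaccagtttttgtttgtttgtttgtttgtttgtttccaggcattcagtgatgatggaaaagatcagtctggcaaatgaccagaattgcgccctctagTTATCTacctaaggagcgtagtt
Actc1, chr2:113883247-113883546: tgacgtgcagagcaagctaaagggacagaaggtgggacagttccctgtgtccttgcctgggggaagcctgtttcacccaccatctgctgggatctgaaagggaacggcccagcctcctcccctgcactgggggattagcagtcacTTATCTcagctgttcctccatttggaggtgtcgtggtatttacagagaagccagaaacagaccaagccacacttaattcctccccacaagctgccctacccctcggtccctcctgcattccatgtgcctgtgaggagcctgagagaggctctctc
The Hand2 window is downstream of the gene of a bHLH factor needed for the right ventricle and limb, and had 1 GATA and 2 MEIS matches. The Gata5 window had 1 match of each kind and is near the gene of a GATA factor of the endocardium. The Ryr2 window lies in an intron of the cardiac calcium release channel gene and had 2 GATA matches. The Actc1 window, near the cardiac actin gene, had 1. The Wnt2 window lies in an intron of St7 and had 1 GATA match. The Tbx4 window, in an intron of a T-box gene of hindlimb and lung mesenchyme, had 2 GATA matches and 1 MEIS match.

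Mesp1-Cre replicate 1 called 96.7% of the Mesp1-Cre-only regions, replicate 2 called 42.7% and replicate 3 called 83.8%. The call pattern was uneven: 1324 regions were called in replicates 1 and 3, 536 in all 3 libraries, 374 in replicates 1 and 2, and 76 in replicates 2 and 3. Replicate 2 had the shortest list of its group. The number of regions rested on single libraries: it was 604 without Mesp1-Cre replicate 1, 901 without replicate 3 and 3507 without Tbx1-Cre Ctrl replicate 1. Peaks at these regions were narrow, with median widths of 343, 278 and 314 bp in replicates 1 to 3, against 663, 557 and 609 bp in the same libraries at shared regions, which had a peak in at least 2 of 3 libraries of both control groups. Just outside the rule, 6745 regions had a peak in 1 Mesp1-Cre Ctrl library and in no Tbx1-Cre Ctrl library, and 1310 and 651 regions had peaks in 2 and 3 Mesp1-Cre Ctrl libraries but also in 1 Tbx1-Cre Ctrl library. Just inside it stood 1774 regions with exactly 2 calls. The distance to the nearest Tbx1-Cre Ctrl peak ranged from 2 to 1742093 bp with a median of 9871 bp, and 178 regions had one within 1 kb.

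**Figure D1:**
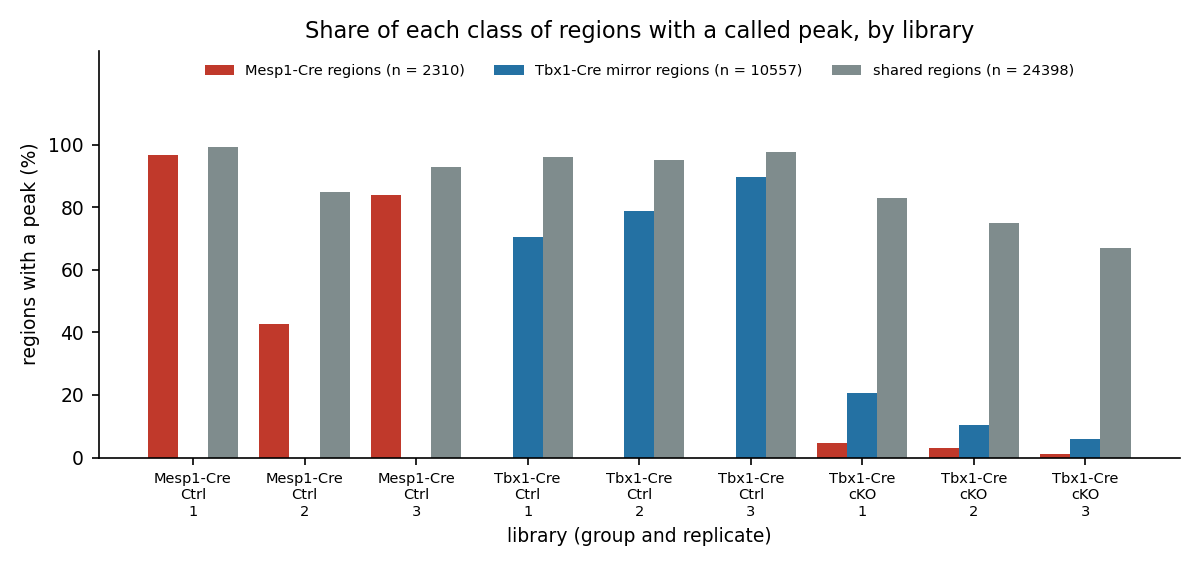
Percentage of Mesp1-Cre-only regions (red), mirror regions of the Tbx1-Cre controls (blue) and shared regions (grey) with a called peak in each of the 9 libraries; each bar is 1 library. The calls in the 6 control libraries follow from how the classes were chosen, while in the cKO libraries, which were not used, the red bars reach 4.50, 3.03 and 0.996%.

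How well the rule carried over to libraries it had not used was examined by choosing regions on 2 Mesp1-Cre Ctrl and 2 Tbx1-Cre Ctrl libraries and reading the left-out library of each group. The left-out Mesp1-Cre library called 85.9 to 90.2% of the chosen regions when it was replicate 1, 29.9 to 34.8% when it was replicate 2 and 56.6 to 63.1% when it was replicate 3. The left-out Tbx1-Cre Ctrl library called 33.8 to 43.5% when it was replicate 1, 11.4 to 15.8% when it was replicate 2 and 14.2 to 20.5% when it was replicate 3. Over all merged regions, Mesp1-Cre replicates 1 to 3 called 55.3, 33.0 and 39.4%. For Tbx1-Cre Ctrl replicates 1 to 3 these background shares were 63.6, 56.7 and 61.6%. Mesp1-Cre replicate 2, when left out, was thus near its background. Replicates 1 and 3 were above theirs, and the Tbx1-Cre Ctrl libraries were below theirs. The Mesp1-Cre share was the higher one in 9 of 9 choices. It was barely so when replicate 2 of Mesp1-Cre and replicate 1 of Tbx1-Cre were left out, at 34.8% against 33.8% of 2810 regions. The 9 choices share libraries and were not tested. In each choice, some of the regions without a peak in 2 Tbx1-Cre Ctrl libraries had one in the remaining library.

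**Figure D2:**
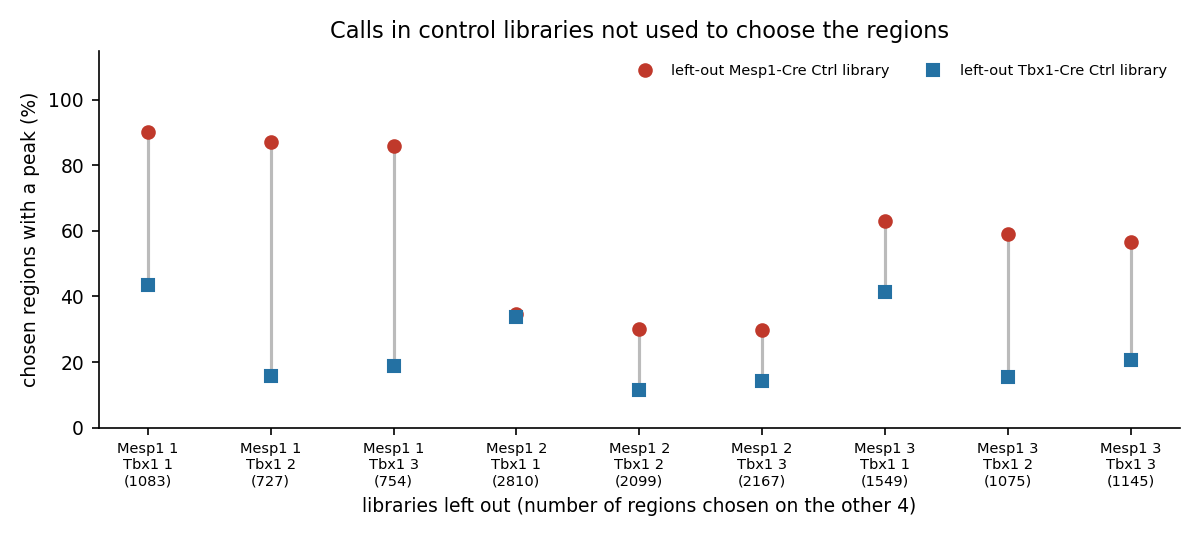
Percentage of regions chosen on 4 control libraries that had a peak in the left-out Mesp1-Cre Ctrl library (circles) and in the left-out Tbx1-Cre Ctrl library (squares), for each of 9 choices, with the number of chosen regions in parentheses. The circle is above the square in all 9 choices, with the symbols almost touching at 34.8 and 33.8%.

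Few of the Mesp1-Cre-only regions were called in cells of the Tbx1 lineage that had lost Tbx1, in the lists as deposited, of which the cKO lists were the shortest as a group. Peaks were present at 104 of them (4.50%) in cKO replicate 1, at 70 (3.03%) in replicate 2 and at 23 (0.996%) in replicate 3, a mean of 2.84% ± 1.76 (SD, n = 3). In the same libraries, peaks were present at 37.4, 30.4 and 25.2% of all merged regions. In all, 168 Mesp1-Cre-only regions (7.27%) had a peak in at least 1 cKO library, against 43.6% of all merged regions, a background that includes regions called only in a cKO library. Only 28 had a peak in at least 2 cKO libraries, and 1 in all 3. The reciprocal class served as comparison: 10557 mirror regions (14.4% of merged regions) with a peak in at least 2 of 3 Tbx1-Cre Ctrl libraries and in no Mesp1-Cre Ctrl library. Mirror regions had a cKO peak in 20.6, 10.3 and 6.02% of cases in cKO replicates 1 to 3. The Mesp1-Cre-only share was lower in 3 of 3 cKO libraries, with differences of -16.1, -7.30 and -5.03 percentage points. With 3 libraries, the exact two-sided sign-flip permutation test gave p = 0.25, the smallest value that it allows. The level depended on the length of the lists: with the same number of widest peaks (19762) in each, the mean share was 23.5%, against 31.7% of mirror regions.

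The 2 classes differed in peak width, so the shares were also set side by side within bins of the mean peak width in the control libraries that called them. Under 350 bp, a mean of 2.57% of Mesp1-Cre-only regions and 6.19% of mirror regions had a cKO peak. From 350 to 500 bp, the means were 2.66 and 11.2%. Over 500 bp, they were 4.76 and 25.5%. The mirror share rose with width far more than the Mesp1-Cre-only share did. Averaged over these bins, the mean difference was -11.0 points. The classes also differed in the number of calling control libraries, exactly 2 for 1774 of 2310 Mesp1-Cre-only and 6455 of 10557 mirror regions. Among regions with exactly 2 such calls the mean difference was -4.02 points, against -9.48 over all regions of the 2 classes. Mirror regions were chosen in embryos of the same Cre driver and dissection as the cKO libraries, so their higher share cannot be told apart from that.

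The single region called in every Mesp1-Cre and every cKO library lay at chr5:137632911-137633647, in an intron of Gm3054, a predicted gene, 1577 bp from its TSS. Its peaks measured 452, 412 and 324 bp in Mesp1-Cre replicates 1 to 3 and 291, 359 and 430 bp in cKO replicates 1 to 3. Regions with any cKO peak were more often promoters than those without, at 19 of 168 (11.3%) against 77 of 2142 (3.59%). Away from promoters, the GATA motif was present in 30 of 149 windows (20.1%) of regions with a cKO peak and in 682 of 2065 windows (33.0%) of regions without one, shares that were not tested.

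Mesp1-Cre-only regions lay mostly far from genes' starts. Only 96 of them (4.16%) had their midpoint within 1 kb of the TSS of a protein-coding gene, close to the 4.35% of mirror regions and far below the 50.7% of shared regions and the 21.6% of all merged regions. With the same number of widest peaks in each list the share was 17.1%, against 5.94% of mirror and 36.5% of all merged regions, so the likeness to mirror regions depended on the length of the lists. The median distance to a TSS was 44532 bp, against 43035 bp for mirror regions and 817.5 bp for shared regions. By the midpoint, 50.9% were intergenic, 45.6% were in an intron and the remainder in exons. Their median width as merged regions was 469.5 bp (range 201 to 1337). The X chromosome held 29 of them, 1.26%, against 2.14% of all merged regions. They were spread over the genome, with a median of 235.0 kb to the nearest other Mesp1-Cre-only region, and 432 (18.7%) had a neighbour within 50 kb.

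Of the 14 motifs searched first, GATA stood highest over its background, at 2.15 times the share of all merged regions. AGATAA was present in 712 of 2214 windows more than 1 kb from a TSS (32.2%, 95% Wilson interval 30.2 to 34.1), against 11.9% of mirror regions, 11.7% of shared regions and 15.0% of all merged regions of the same window length. The MEIS motif TGACAG was present in 37.7% (35.7 to 39.8), against 25.2, 25.5 and 26.5%. Wilson intervals cover counting error only, and regions are not replicates, so that these shares are descriptions and were not tested. The mean GC content of the windows was 48.3%, against 48.8% in mirror and 50.1% in all merged regions. Within windows of 45 to 55% GC, the GATA share was 32.5% in Mesp1-Cre-only, 10.6% in mirror and 14.9% in all merged regions. Under 45% GC the gap was smaller, at 33.4, 18.8 and 23.0%, and over 55% GC the shares were 27.5, 5.54 and 7.20%. The MEIS shares were 38.9, 26.6 and 28.7% at 45 to 55% GC, 37.1, 22.4 and 24.7% under it and 32.4, 24.1 and 22.5% over it.

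Both motifs together were present in 270 windows (12.2%), which is about the product of the separate shares (12.1%), against 2.95% of mirror regions. Either was present in 1277 windows (57.7%), against 34.1% of mirror regions. A composite in which CTG is followed after 8 bases by GATAA, known as the E-box and GATA element bound by the bHLH and GATA factor complex of blood and endothelial cells, was present in 72 windows (3.25%), against 0.644% of mirror regions and 1.04% of all merged regions. It overlaps in part with AGATAA and was added after the data were seen.

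Among the other motifs, NKX2 and AP-1 were above and CTCF far below their shares in all merged regions. The NKX2 motif TTAAGTG, of the family of the heart factor Nkx2-5, was present in 5.19% of windows against 3.58% of all merged regions, a ratio of 1.45 beside 1.42 for MEIS. The AP-1 motif TGANTCA was present in 11.6% against 8.49%, and the TEAD motif GGAATG, of the factors that work with YAP, in 22.9% against 19.7%. The T-box motif AGGTGTGA was rare everywhere, at 1.17% against 0.832% of mirror regions. For MEF2, a family of muscle and heart factors, the shares were 2.66 and 2.70%. The E-box CATCTG was present in 30.1% and 32.2%, and the E-box CAGCTG in 29.0% and 25.3%, of Mesp1-Cre-only and mirror regions. The ETS motif CAGGAAG, of the family that includes endothelial factors, was lower than background, at 13.3% against 16.3%, and so was the SOX motif ACAATGG, at 2.89% against 3.56%. The FOX motif TGTTTAC was present in 6.73% against 5.36%, and the RUNX motif TGTGGT in 18.6% against 19.7%. CTCF, the insulator protein, had a match in 1.40% of windows, against 3.13% of mirror, 7.20% of shared and 4.81% of all merged regions. A match is a string of letters and not a bound site.

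**Figure D3:**
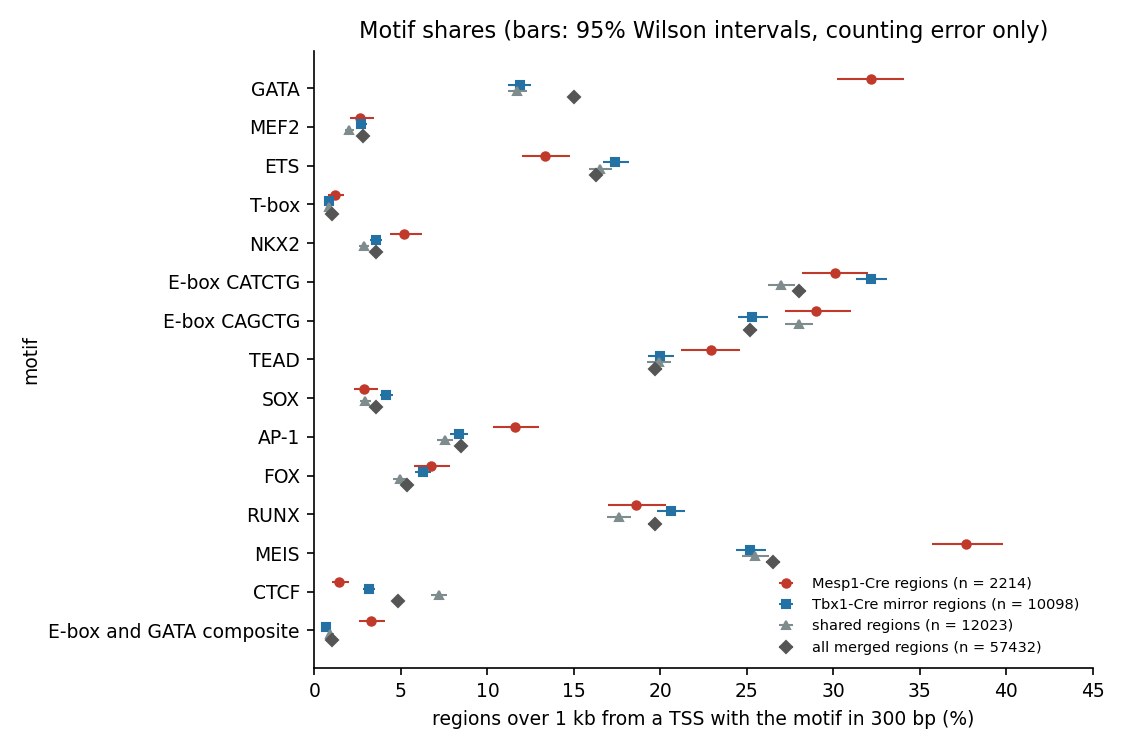
Percentage of regions over 1 kb from a TSS with each motif in the 300 bp around the midpoint, for Mesp1-Cre-only (red circles), mirror (blue squares), shared (grey triangles) and all merged regions (dark diamonds), with 95% Wilson intervals that cover counting error only. The Mesp1-Cre-only share lies well to the right of the other classes for GATA (32.2%) and MEIS (37.7%), less far for NKX2 (5.19%) and AP-1 (11.6%), and to their left for CTCF (1.40%).

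The share with a GATA motif followed the control calls on both sides. Among regions with a peak in 3 Mesp1-Cre Ctrl libraries, it was 34.5, 26.6, 17.3 and 11.2% for 0, 1, 2 and 3 Tbx1-Cre Ctrl libraries with a peak. Among regions without a Tbx1-Cre Ctrl peak, it was 24.7% for 1, 31.4% for 2 and 34.5% for 3 Mesp1-Cre Ctrl libraries. The MEIS share moved alike, from 47.2% with 3 Mesp1-Cre and 0 Tbx1-Cre libraries to 24.3% with 3 and 3. Regions with a peak in 3 Tbx1-Cre and no Mesp1-Cre libraries had a GATA share of 11.1% and a MEIS share of 25.8%. By call pattern the motifs behaved differently: GATA was present in 34.5% of regions called in replicates 1 and 3 but 21.9% of those called in replicates 1 and 2, whereas MEIS was present in 34.5 and 36.2% of these and in 47.2% of regions called in all 3. The GATA share thus varied with the pair of libraries that called a region.

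**Figure D4:**
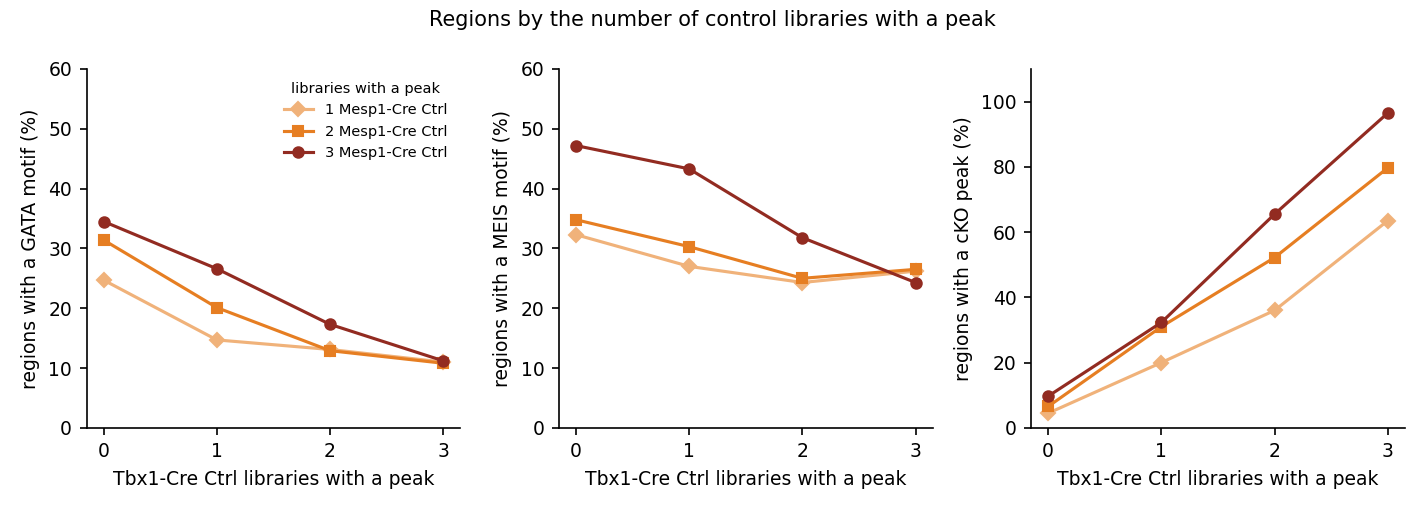
Percentage of regions with the GATA motif (left), the MEIS motif (middle; both over 1 kb from a TSS) and a peak in at least 1 cKO library (right), by the number of Tbx1-Cre Ctrl libraries (horizontal axis) and of Mesp1-Cre Ctrl libraries (colour) with a peak. The Mesp1-Cre-only regions are the points of 2 and 3 Mesp1-Cre libraries at 0, where the GATA shares are highest, at 31.4 and 34.5%, and the cKO shares are 6.54 and 9.70%.

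To see which genes lay near, each merged region was assigned to the protein-coding gene with the nearest TSS, if within 100 kb. Of 59282 assigned regions 1620 (2.73%) were Mesp1-Cre-only regions, and the other 690 were farther away. Of 17263 genes with an assigned region, 1407 (8.15%) had at least 1. A single one was assigned to 1216 genes, 172 genes had 2, 16 had 3 and 3 had 4. Those 3 were Angpt2, which encodes an angiopoietin that antagonizes TEK signalling in vessels, Gna14, for a G protein alpha subunit, and Klf12, for a zinc finger repressor. At Angpt2, 4 of 10 assigned regions were Mesp1-Cre-only and 3 were mirror regions. The widest of the 4 lay at chr8:18793219-18793839 in an intron of Mcph1, with peaks of 548, 297 and 522 bp in Mesp1-Cre replicates 1 to 3. At Gna14, 4 of 12 assigned regions were Mesp1-Cre-only and 6 were mirror regions. These 4 lay in its introns and were called in replicates 1 and 3 only, with peaks of 199 to 473 bp. Klf12 had 4 of 12, beside 2 mirror regions. Of its 4, the one at chr14:100594201-100594947 was called in all 3 Mesp1-Cre libraries (563, 248 and 747 bp). Genes with 3 included Atp2a3 (7 assigned regions, 2 of them mirror regions), Fgd6 (6 and 0), Fggy (24 and 2) and Itpr1 (29 and 4). Lclat1 (10 and 1), Nebl (13 and 2) and Odz4 (32 and 7) also had 3.

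Of the 8 gene lists examined, cardiomyocyte genes had the highest share. Among 83 merged regions assigned to the 25 genes for sarcomere and heart cell function, 9 were Mesp1-Cre-only (10.8%, 95% Wilson interval 5.81 to 19.3), against 2.73% over all genes, and 6 genes had at least 1. Mirror regions made up 13.3% of the same regions, against 12.6% over all genes, so the list was near background in that direction. Sarcomere genes such as Myh7, Myl2, Myl7, Tnnt2, Tnni1 and Ttn had none in the class, and Tnni1 had 3 mirror regions. Of the genes named below, Ryr2 and Smyd1 had no mirror region. Actc1 had 1 region of each class, and Cacna1c had 1 Mesp1-Cre-only region beside 2 mirror regions. Regions near 1 gene are not independent and no test was made. Ryr2 had 3 of its 6 regions in the class. The first, at chr13:12129238-12129638 in an intron, had peaks of 399 and 331 bp in Mesp1-Cre replicates 1 and 3 and none in replicate 2. The second, at chr13:12162614-12162929, also intronic and shown above, had peaks of 239 and 270 bp in the same libraries. The third, at chr13:12225886-12226307, 26.9 kb from the TSS in intergenic sequence, was called in all 3, with peaks of 369, 226 and 267 bp. No cKO library had a peak at any of them, while the lack of a Tbx1-Cre Ctrl peak followed from the rule.

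Smyd1 encodes a histone methyltransferase of heart and skeletal muscle. Its internal promoter region at chr6:71212276-71213019, 373 bp from a TSS, had peaks of 550 and 512 bp in Mesp1-Cre replicates 1 and 3 and 253 bp in cKO replicate 2. The other Smyd1 region, at chr6:71167867-71168280, had a near-identical copy among the other Mesp1-Cre-only regions, so the origin of its reads is uncertain. Near Actc1, the region at chr2:113883130-113883664, 4113 bp from the TSS, had peaks of 296 and 333 bp in replicates 1 and 3. At chr6:119146392-119146987, in Dcp1b and 441 bp from a TSS annotated to Cacna1c, the L-type calcium channel gene, peaks of 535, 199 and 596 bp were called in all 3 Mesp1-Cre libraries. Of the 9 regions of the list, 6 were called in replicates 1 and 3 only, 1 in replicates 1 and 2, and 2 in all 3. Without replicate 1 or without replicate 3 the list therefore held 2 of 77 (2.60%) or 3 of 80 (3.75%), beside 0.686 and 1.00% over all genes.

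Genes of cardiac transcription factors had 8 of 124 regions in the class (6.45%, 3.31 to 12.2) at 6 of 19 genes. This list alone had fewer mirror regions than Mesp1-Cre-only regions, 6 (4.84%). Near Hand2, the region at chr8:59810630-59810976, 11.0 kb from the TSS, had narrow peaks of 209, 243 and 342 bp in all 3 Mesp1-Cre libraries, and a second at chr8:59840003-59840269 had peaks of 242 and 237 bp in replicates 1 and 3. Near Gata5, the regions at chr2:180074401-180074992 and chr2:180089711-180089980 had peaks of 259 and 487 bp and of 254 and 199 bp in replicates 1 and 3. Irx4, for a ventricular homeodomain factor, had an intronic region with peaks of 239 and 199 bp, and Myocd, for the smooth and cardiac muscle coactivator myocardin, a region 34.1 kb away with 220 and 217 bp, both in replicates 1 and 3. Most of these peaks were narrow. With the widest 75% of peaks of every list, 1 of 86 regions remained in the class (1.16%, beside 2.36% over all genes), so the share of this list rested on narrow peaks. It also rested on 2 libraries: the class held 1 of 113 regions (0.885%, beside 0.686% over all genes) without Mesp1-Cre replicate 1 and 2 of 118 (1.69%, beside 1.00%) without replicate 3, and 0.806% (beside 0.568%) with calls in all 3 Mesp1-Cre libraries.

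Mesoderm of the trunk wall, limb and connective tissue had 10 of 124 regions in the class (8.06%, 4.44 to 14.2) at 7 of 17 genes, and 20.2% mirror regions. Near Alx1, for a homeodomain factor of craniofacial mesenchyme, the region at chr10:102463500-102464077 had peaks of 564, 448 and 578 bp in Mesp1-Cre replicates 1 to 3. A second, at chr10:102410081-102410391, had peaks of 311 and 256 bp in replicates 1 and 3. The intronic Tbx4 regions at chr11:85702023-85702549 and chr11:85723571-85724077 had peaks of 527 and 231 bp and of 393 and 442 bp in these same libraries. Dlk1, for a Notch pathway ligand, had 2 of its 18 regions in the class and 2 mirror regions. Col3a1, for type III collagen, had 1 of 6 in the class and 4 mirror regions. Of the 10 regions, 7 were called in replicates 1 and 3 only. Without replicate 1 the class held 2 of 117 regions of the list (1.71%, beside 0.686% over all genes), and without replicate 3 it held 3 of 124 (2.42%, beside 1.00%). The back was part of the tissue in the Tbx1-Cre libraries by their labels, which cannot be told apart from the lineage here.

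Posterior second heart field, proepicardium and lung mesenchyme held 7 of 137 regions (5.11%, 2.50 to 10.2). The share over all genes, 2.73%, lay inside this interval, and 19 regions of the list (13.9%) were mirror regions. Of the 7, 4 were called in Mesp1-Cre replicates 1 and 3 only. Wnt2 encodes a WNT ligand of the posterior heart field and lung mesenchyme. Its region at chr6:17888522-17889423, in an intron of St7 and 91.6 kb from the TSS, had some of the widest peaks of the named regions, 611, 470 and 902 bp in Mesp1-Cre replicates 1 to 3. The other, in an intron of Wnt2 at chr6:17948253-17949171, had peaks of 656 and 744 bp in replicates 1 and 3 and none in replicate 2. Of 7 merged regions at Wnt2, Mesp1-Cre replicates 1 to 3 called 5, 4 and 7, the Tbx1-Cre Ctrl libraries 2, 1 and 2, and the cKO libraries 2, 0 and 0. For the 2 of these in the class, the control calls followed from the rule, so the contrast between control groups was partly set by the choice. Foxp1, for a forkhead factor, had 2 of its 26 regions in the class and 6 mirror regions. The Nr2f1 region assigned within 100 kb lay 2 bp from a Tbx1-Cre Ctrl peak, the smallest such gap, and would fall outside the class with a slightly wider merge.

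The blood list held 3 of 49 regions (6.12%, 2.10 to 16.5) at 2 of 14 genes found in the annotation. The share over all genes, 2.73%, lay inside this interval, and 7 regions of the list (14.3%) were mirror regions. These were globin genes of the primitive red cells, and no other gene of the list had a region in the class. Klf1, Gfi1b, Nfe2 and Lyl1 were among those without one, and the region at Klf1 was called in all 9 libraries. At Hbb-y, 168 bp from the TSS at chr7:111001417-111001755, peaks of 208 and 339 bp were called in Mesp1-Cre replicates 1 and 3, and a second region 12.7 kb away had peaks of 241 and 432 bp. At Hba-x, the region at chr11:32177700-32178700 had the widest of these peaks, 832 and 962 bp. None of the 6 merged regions assigned to these 2 genes had a peak in Mesp1-Cre replicate 2, in a Tbx1-Cre Ctrl library or in a cKO library. For the 3 in the class, the lack of a Tbx1-Cre Ctrl peak followed from the rule. Further red cell promoters in the class, chosen after their values were seen, were those of Hbb-bh2 (268 and 536 bp in replicates 1 and 3), Epb4.2, for a red cell membrane protein (304 and 400 bp in replicates 1 and 3), Hbq1a (239 and 232 bp in replicates 1 and 2) and Ank1, for erythroid ankyrin (240 and 207 bp in replicates 2 and 3). Over the whole blood list, 26, 15 and 28 of 49 regions had a peak in Mesp1-Cre replicates 1 to 3, against 27 to 37 in the Tbx1-Cre Ctrl and 13 to 19 in the cKO libraries, and 3 genes (Hbb-y, Hba-x and Gata1) had no peak in a Tbx1-Cre Ctrl library, Gata1 having none in any library. The further promoters were picked from the 96 promoter regions of the class, and no share over all red cell promoters was taken. Globin genes are close paralogs, so reads may be placed with less certainty there. The calls at Hbb-y, Hba-x and Hbb-bh2 were in replicates 1 and 3, the commonest call pattern of the class (57.3% of its regions). None of the 3 windows of the blood list held AGATAA, while the Epb4.2 window did. Without replicate 1 or without replicate 3 the blood list held no region of the class. The part of red cells in the other results was not tested. In bulk samples more cells of a type and a more open region per cell cannot be told apart.

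Genes of endothelium and endocardium were at the background. Of 207 regions 5 were Mesp1-Cre-only (2.42%, 1.04 to 5.53) at 5 of 35 genes. The Flt1 region, in an intron of this VEGF receptor gene at chr5:148473330-148473871, was called in all 3 Mesp1-Cre libraries (381, 289 and 312 bp). The Fli1 region, 814 bp from a TSS of this ETS factor gene, had peaks of 480 and 243 bp in replicates 1 and 2. The regions of Erg and Ets1, for related ETS factors, had peaks of 218 and 203 bp and of 224 and 204 bp in replicates 1 and 3.

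Genes of branchiomeric muscle and pharyngeal mesoderm, where both lineages meet, were also near background, with 4 of 129 regions (3.10%, 1.21 to 7.70). The Aplnr region was the exception in peak width. It lay at chr2:85000708-85001544, 24.6 kb from the TSS of the apelin receptor gene, and its peaks of 825, 802 and 720 bp in Mesp1-Cre replicates 1 to 3 ranked second in mean width among the 536 regions called in all 3 libraries. A Tbx1-Cre Ctrl peak lay 126 bp away, so that the interval was next to sequence called in the Tbx1-Cre controls. The Ebf3 region had peaks of 609 and 286 bp and the Nrg1 region peaks of 307 and 199 bp, in replicates 1 and 3, in introns of these genes for a muscle lineage transcription factor and a neuregulin ligand. The region assigned to Tbx1 itself, at chr16:18552457-18552748 in an exon of Gnb1l, had peaks of 242 and 284 bp in replicates 2 and 3 and lay 205 bp from a Tbx1-Cre Ctrl peak.

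Genes of epithelium, otic vesicle and neural crest, cell types outside the mesoderm, had 3 of 105 regions in the class (2.86%, 0.976 to 8.07) and 20 mirror regions. The 3 regions were near Foxa1, Foxa2 and Otx2, for forkhead and homeodomain factors of endoderm and anterior head. The Foxa1 peaks were at the narrow limit, 199 and 202 bp in replicates 2 and 3, while those at Foxa2 (583 and 344 bp) and Otx2 (629 and 236 bp) were called in replicates 1 and 3.

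**Figure D5:**
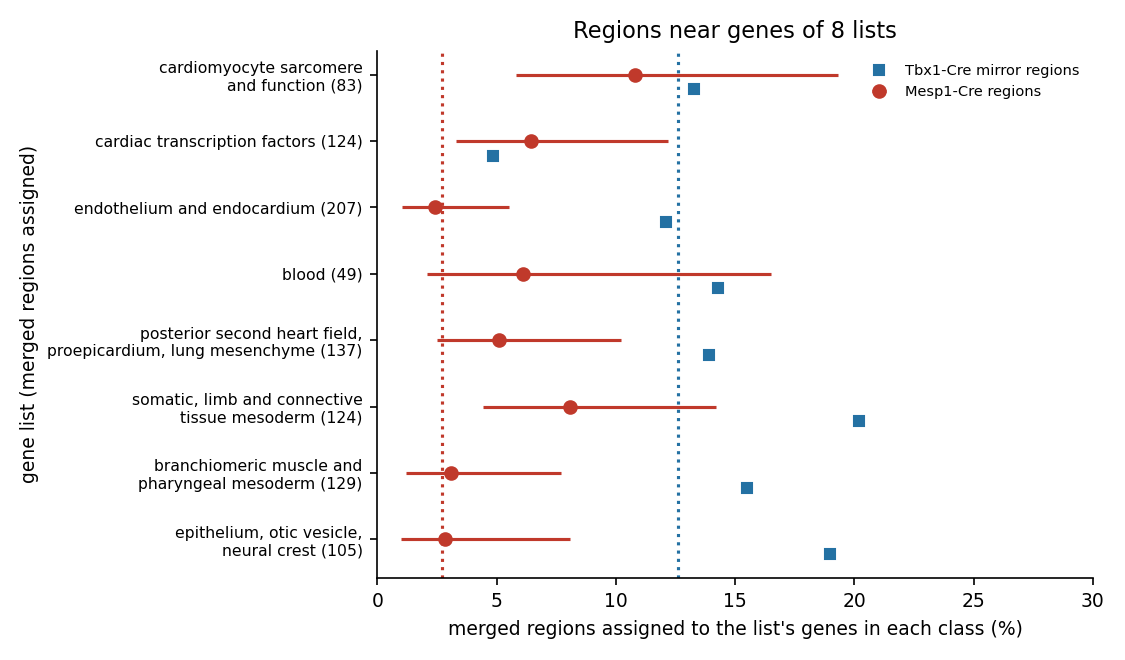
Percentage of the merged regions assigned to the genes of each list that were Mesp1-Cre-only (red circles, with 95% Wilson intervals for counting error only) or mirror regions (blue squares); dotted lines give the shares over all protein-coding genes, 2.73 and 12.6%. The red share is highest for cardiomyocyte genes (10.8%) and lies near the red line for endothelium (2.42%) and for epithelium, otic vesicle and neural crest (2.86%).

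The widest regions called in all 3 Mesp1-Cre libraries were mostly not at genes of these lists. The first was at chr7:81317643-81318770, 159639 bp from St8sia2, for a sialyltransferase, with peaks of 1128, 793 and 875 bp in replicates 1 to 3 and 510 bp in cKO replicate 2. After the Aplnr region came one in an intron of Plxdc2, for a plexin domain protein, at chr2:16665068-16665965 (822, 898 and 580 bp). An intergenic region at chr13:78923214-78924025, whose nearest TSS was that of Nr2f1 at 584602 bp, had peaks of 602, 812 and 654 bp. Nr2f1 encodes an orphan nuclear receptor of atrial and head mesoderm. Of the 10 widest, 9 had no cKO peak, and 9 lay more than 10 kb from a TSS.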

How the data were processed

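Nuclei of sorted cells were profiled by ATAC-seq in 9 libraries. The deposited files list, for each peak, a chromosome, start and end, with no score, count or signal. According to the methods of the study and the submitters' processing notes, the authors aligned reads to mm9 with Bowtie2 2.3.4.3, kept unique pairs without duplicates or mitochondrial reads, and called peaks per library with MACS2. Samples were grouped by title and genotype label.

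Regions, genes and sequences were obtained with Python 3.11.15, pandas 2.3.3, scipy 1.17.1 and pysam 0.24.0 on NCBIM37 with GENCODE protein-coding genes. Intervals on other chromosomes were left out. Sequence relatives were found with BLAST+ 2.17.0 (E at most 1e-10, at least 100 bp). The procedures recovered planted regions and motifs in simulated data. No count model fits peak positions, and with 3 libraries only a sign-flip test over cKO libraries was made. Members, gene lists, motifs and the naming rule (widest peaks, most regions per gene, up to 4 genes per list, regions called in all cKO libraries, up to 6 sequences) were chosen with earlier results of these data known. Values of a withheld item are not reported here.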

Additional observations from a re-analysis of the deposited data

Results flagged for a closer look

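Each of the 3 Mesp1-Cre Ctrl lists held 2 intervals on the mitochondrial genome, and each of the 6 Tbx1-Cre lists held 0. They covered 6967, 6799 and 6851 bp of its 16299 bp. The chromosome was not used in any comparison, and was looked at again because the methods of the study state that mitochondrial reads were removed. No Mesp1-Cre-only region aligned to the mitochondrial genome (0 of 2310), against 14 of all 73301 merged regions (0.0191%). At that background share a class of this size would hold few or none, so the 0 does not set the class apart. Together with the narrowest interval of 199 bp in place of 200 bp, this sets the format of the Mesp1-Cre Ctrl lists apart from the others, which cannot be told apart from the group. When the starts of the Mesp1-Cre intervals were moved by 1 bp, an alternative chosen after seeing the data, the number of Mesp1-Cre-only regions stayed at 2310.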

How the results depend on the processing

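The cKO share stayed below that of mirror regions under all 18 alternatives, with differences of -13.3 to -4.02 points. When each library was left out in turn, the number of regions ran from 604 to 3507, the cKO mean from 2.01 to 6.16% (6.16% without Tbx1-Cre Ctrl replicate 1 and 5.05% without its replicate 3), the promoter share from 2.98 to 5.81%, the GATA share from 28.8 to 34.5% and the cardiomyocyte share from 2.60 to 15.8%. Requiring 3 of 3 Mesp1-Cre Ctrl libraries left 536 regions, with 2.80% promoters, a GATA share of 34.5% and a cardiomyocyte share of 2.41% (0.568% over all genes). With the same number of widest peaks (19762) in each list, the cKO mean was 23.5% (31.7% in mirror regions), the promoter share 17.1% (5.94% in mirror regions), the GATA share 24.7% (10.8% in mirror regions) and the cardiomyocyte share 21.2% (5.80% over all genes). With no Tbx1-Cre Ctrl peak within 1 kb, promoters were 3.28%, and with promoters taken to 5 kb they were 9.74%. In 200 bp windows the GATA share was 24.8% (8.27% in mirror regions). Of these alternatives, the 1 bp shift of the Mesp1-Cre starts and the removal of near-identical copies were chosen after seeing the data. The GATA share exceeded that of mirror regions under all 17 alternatives run for it. The causes were not tested, apart from fewer libraries or narrower windows by construction.

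No paired analysis was possible between groups because no test compared groups. The sign-flip test sets the 2 classes of regions side by side within each cKO library, and replicate numbers across groups entered no test. Peak lists without depth limit the rest: a narrow peak missed in 1 library moves a region in or out of the class, and the p-value of 0.25 is the smallest that 3 libraries allow.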

Other observations

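A group of related sequences recurred among the Mesp1-Cre-only regions. When the 300 bp windows were aligned to those of all merged regions, 21 Mesp1-Cre-only regions on 11 chromosomes formed 1 group with pairwise identities of 91.6 to 100% over the aligned part. None lay within 1 kb of a TSS, none had a cKO peak, and the median distance to a TSS was 107.0 kb. The GATA motif was present in 14 of them, the MEIS motif in 18 and both in 13. Over all 67 merged regions related to the group, Mesp1-Cre replicates 1 to 3 had a peak at 51, 24 and 33, the Tbx1-Cre Ctrl libraries at 1, 11 and 5 and the cKO libraries at 1, 1 and 1. The 67 include the 21 regions of the group, whose control calls followed from the rule. The contrast between the control libraries was therefore partly set by the choice. Of the 67, 34 had a peak in 1 Mesp1-Cre Ctrl and no Tbx1-Cre Ctrl library, 3 were shared regions and 0 were mirror regions. Smaller groups of the same kind held 6 and 4 regions, of which 5 and 4 had the GATA motif.

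The motif shares were also taken apart by sequence relatives, a split chosen after seeing the data. Of the Mesp1-Cre-only regions over 1 kb from a TSS, 98 of 2214 (4.43%) aligned to another merged region, against 3.64% of mirror regions. Without them the GATA share was 31.5% and the MEIS share 37.1%. Among them the shares were 46.9 and 50.0%, against 10.3 and 20.1% of the 368 mirror regions with a relative. Reads from near-identical copies are hard to place, and a difference in how the lists were filtered was not tested.

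Near-identical pairs were looked for after seeing the data. Of the 2310 regions, 39 (1.69%) aligned to another over at least 200 bp at 95% identity or more, and 7 of them lay in the first 8 Mb of chromosome 14, a cluster of predicted genes. The same shares were not taken for mirror or all merged regions, so whether they are particular to the class is unknown. The share of all merged regions that were Mesp1-Cre-only was highest on chromosome 14 (4.23%) and chromosome 12 (4.05%) and lowest on X (1.85%).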
